A study of Mus musculus with 6 samples.

Results

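The calcitonin, CGRP and adrenomedullin system was followed through the genes of its peptides, receptors and receptor partners in mouse mammary tumours and mammary glands. It comprises 10 genes of the 24421 in the table: the peptide genes Calca, Calcb, Adm, Adm2 and Iapp, the receptor genes Calcr and Calcrl, and the receptor activity modifying protein genes Ramp1, Ramp2 and Ramp3. They were taken by symbol, and the system was chosen on measured values of the same comparison, in which Calca had already been seen high in the glands and at 0 in the tumours. Differences of the 10 genes between tumour and gland are therefore given as descriptions, without a test of their own. The tumours came from 5-month-old female FVB/NJ mice labelled MMTV-Tg(LINK-A), with 3 libraries. The glands came from female FVB/NJ mice of that age labelled Tg(LINK-A), also with 3 libraries. LINK-A is a long non-coding RNA of human breast tumours, and the labels name it as a transgene in both groups. Only the label of the tumour mice names MMTV, the promoter of mouse mammary tumour virus, which is active in mammary epithelium, so genotype and tissue cannot be told apart. The labels do not say whether the libraries of a group came from separate animals, and the p-values cover the spread among these libraries, which may be technical.

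Calcitonin, the CGRPs (calcitonin gene-related peptides), adrenomedullin, adrenomedullin 2 and amylin are related peptide hormones that share a ring closed by a disulphide bond and an amidated end. Their receptors are class B G protein-coupled receptors that mainly couple to Gs and raise cyclic AMP. The calcitonin receptor binds calcitonin on its own, and a RAMP partner turns it into an amylin receptor. Calcrl, the calcitonin receptor-like receptor, reaches the cell surface only with a RAMP: with RAMP1 it is the CGRP receptor, and with RAMP2 or RAMP3 an adrenomedullin receptor. Calcrl and Ramp2 are known as genes of blood and lymphatic endothelium, where adrenomedullin signalling is needed for vessel development. Calcitonin is best known from thyroid C cells and CGRP from sensory neurons, and calcitonin has also been described in mammary epithelium during pregnancy.

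Levels are in FPKM, fragment counts corrected for how long a transcript is and how deeply its library was sequenced, which allows levels of different genes to be set side by side. They summed to 486080 to 582996 FPKM per tumour library and 495985 to 510957 FPKM per gland library, and the absolute depth is unknown. Across the tested genes, tumours correlated with each other at r = 0.944 to 0.982 and glands at r = 0.921 to 0.976. Luminal epithelial markers were higher in the tumours for 6 of 6 genes, and adipocyte markers lower for 8 of 8, summing to 90.4 to 303 FPKM in the tumours and 7120 to 8500 FPKM in the glands. B cell and lymph node genes stood high in glands 1 and 3, with list means of 5.22 and 5.19 on the log2(FPKM + 1) scale against 3.12 in gland 2. Gland 2 held muscle transcripts such as Ckmt2 (chosen after its values were seen), at 146 FPKM against 0 in gland 1 and 13.7 in gland 3.

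Of the 10 genes, 7 averaged 1 FPKM or more across the 6 libraries and entered the test across all genes, which used limma on log2(FPKM + 1) with an adjusted p of 0.05 as the threshold. Calca, Calcrl, Ramp2 and Adm passed it as lower in the tumours, Adm2 passed it as higher, and Ramp1 and Ramp3 did not pass. These are 5 of the 7 tested, where 45.1% of the 13364 tested genes passed, 21.9% as higher and 23.1% as lower. The values of the tumours and the glands did not overlap for the same 5 genes, which held for 58.2% of all tested genes, for 29.3% with the tumours higher and for 29.0% with the tumours lower. Since the genes were chosen with this comparison known, nothing is read from these counts. Adm dropped out of the count with quantile normalization and when tumour 1 or any 1 gland was left out. Calcb had a value in only a few libraries, and Calcr and Iapp were listed at 0 in all 6. In bulk tissue, fewer cells of a type and less RNA per cell cannot be told apart.

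**Figure D1:**
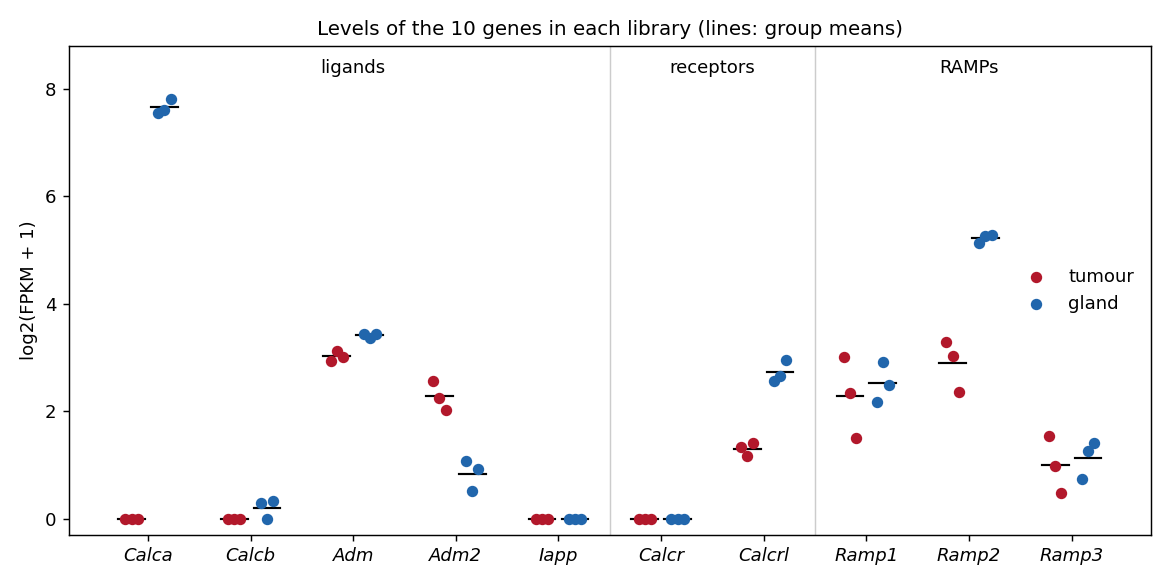
Level of each of the 10 genes in log2(FPKM + 1), with 1 point per library (tumours red, glands blue) and a line at the mean of each group of 3. Calca lies at 0 in the 3 tumours and near 7.66 in the glands, Adm2 lies higher in the tumours, Calcrl and Ramp2 lie lower, and the groups overlap for Ramp1 and Ramp3.

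Calca (chromosome 7, 114631478 to 114636357, minus strand, mm10) encodes calcitonin and the alpha form of CGRP, which come from the same gene by alternative splicing and are read from different last coding exons. The table gives 1 value for the gene, so the messages are not separated. The coding part of exon 4 of each message, on the strand of the gene from GENCODE M21 for GRCm38 (mm10), is shown because a Calca value can hold either, together with that of the neighbouring gene Calcb, which encodes the beta form of CGRP. Capitals mark bases at which the CGRP exons of Calca and Calcb differ or have no counterpart in their alignment. The spans are chr7:114633605-114633785 for calcitonin, chr7:114632443-114632599 for Calca CGRP and chr7:114721975-114722134 for Calcb CGRP, the last on the plus strand.
Calca calcitonin exon: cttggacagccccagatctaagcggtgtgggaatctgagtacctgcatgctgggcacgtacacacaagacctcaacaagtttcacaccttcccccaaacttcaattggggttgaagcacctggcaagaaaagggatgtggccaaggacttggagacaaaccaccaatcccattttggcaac
Calca CGRP exon: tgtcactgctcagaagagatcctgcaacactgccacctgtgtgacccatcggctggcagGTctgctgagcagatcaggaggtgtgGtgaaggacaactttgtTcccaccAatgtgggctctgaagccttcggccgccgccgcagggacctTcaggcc
Calcb CGRP exon: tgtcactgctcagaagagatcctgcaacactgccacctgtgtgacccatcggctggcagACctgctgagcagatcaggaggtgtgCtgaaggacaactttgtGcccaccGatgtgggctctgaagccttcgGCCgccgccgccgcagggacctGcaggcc
The CGRP exons of the paralogues were identical at 151 of 160 aligned positions (94.4%), with an identical run of 59 bases. The calcitonin and CGRP exons of Calca matched at 43.7% of aligned positions, with no identical run longer than 6 bases. Reads from the CGRP exon can thus fit both genes, and the division of such reads between Calca and Calcb is uncertain.

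Calca was listed at 0 in tumours 1, 2 and 3, against 187, 194 and 224 FPKM in glands 1, 2 and 3. The SD over the 3 glands was 19.7 FPKM, and the gland mean placed Calca at rank 327 of all genes there. Every gland value lay far from every tumour value, and no fold is given against a group listed at 0. Of the 741 genes with a gland mean of at least 100 FPKM, 1 was listed at 0 in all 3 tumours, and this was Calca itself. The system was chosen with these values of Calca known, so its place in this count was set by the choice. With a gland mean of at least 10 FPKM there were 20 such genes. Besides Calca, only 2610016A17Rik, Inmt and Ppp1r1a (named after their values were seen) reached 10 FPKM in every gland. The others were near 0 in gland 1 and highest in gland 2, as was Ckmt2 at 0, 146 and 13.7 FPKM in glands 1 to 3. Their means thus rested mainly on gland 2, which held muscle transcripts. Of 10 genes that cells use in general, chosen after the data were seen, 0 were at 0 in any library, and the lowest of their values was 11.8 FPKM. Since they were picked as widely used genes, their values do not bear on the 0 values of Calca.

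Calcb (chromosome 7, 114718643 to 114723365, plus strand) was listed at 0 in all 3 tumours, against 0.217, 0 and 0.259 FPKM in the glands. Its gland values were thus near the lower end of the scale, and its mean was too low for the test. Cyp2r1, a vitamin D 25-hydroxylase gene and the other gene with values within 200 kb of Calca, was listed at 0 in the tumours as well, against 1.10, 0.199 and 0.227 FPKM in the glands. Calcb and Cyp2r1, on the sides of Calca, thus stood far below it in the glands.

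Markers of the cell types known for Calca were in part listed at 0 and in part lower in the tumours, as Calca was. For the thyroid, Tg, Nkx2-1 and Slc26a4 were listed at 0 in all 6 libraries, and the 7 thyroid genes together reached 4.98 to 6.4 FPKM in the tumours and 15.3 to 16 FPKM in the glands. Tshr, the thyrotropin receptor gene, fell to 0, 0.173 and 0 FPKM in the tumours, against 12.5, 14 and 13.3 FPKM in the glands (-3.76, SE 0.15, limma, adjusted p = 1.48e-05). The iodide transporter gene Slc5a5 rose to 5.81, 6.22 and 4.98 FPKM in the tumours, against 2.75, 1.68 and 1.96 FPKM in the glands (1.10, SE 0.18, limma, adjusted p = 0.0026). The 10 sensory neuron genes summed to 0.388 to 0.575 FPKM in the tumours and 1.72 to 2.54 FPKM in the glands, with Nefm, Scn9a and Scn10a at 0 throughout. The 8 neuroendocrine genes summed to 0.283 to 1.84 FPKM in the tumours and 19.4 to 29.9 FPKM in the glands, and Pcsk2 was at 0 throughout. Scg3, a granin gene of secretory granules, fell to 0.527, 0.969 and 0 FPKM in the tumours, against 13.7, 24.9 and 16.9 FPKM in the glands (-3.71, SE 0.31). Syp, which encodes the vesicle protein synaptophysin, fell by 2.15 (SE 0.17). Chga, a defining granule protein gene of neuroendocrine cells, was listed at 0 in the tumours, against 0.566, 0 and 0.199 FPKM in the glands. Whether the thyroid, neuroendocrine or adipocyte genes have a part in the level of Calca was not tested.

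Hormone-sensing luminal genes were lower in the tumours for 6 of 8 tested, higher for 1 and did not pass for 1, with sums of 25.8 to 40.8 FPKM in the tumours and 94.0 to 113 FPKM in the glands. Among 8 genes of alveolar cells, 7 were higher in the tumours and 1 did not pass. They were abundant in both groups, with sums of 30900 to 34800 FPKM in the tumours and 12900 to 15400 FPKM in the glands. Their part in the level of Calca was not tested either. The 5 genes whose pattern over the 6 libraries was most like that of Calca, by the root mean square difference of log2(FPKM + 1) values after each gene's mean was removed, were Retn (0.687), Dgat2 (0.731), Cox8b (0.750), Rbp4 (0.773) and Rspo1 (0.785). Retn, for example, stood at 1.64, 4.04 and 0 FPKM in tumours 1 to 3 and at 486, 389 and 524 FPKM in glands 1 to 3. Dgat2 kept 4.57 to 5.19 FPKM in the tumours, against 408 to 454 FPKM in the glands.

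The Calca promoter is shown because the gene was at 0 in every tumour and in the upper range in every gland. The 250 bases before the RefSeq start (GRCm38.p6, chr7:114636358-114636607, minus strand) read, with TGACG, the core of the cyclic AMP response element, in capitals:
Calca promoter: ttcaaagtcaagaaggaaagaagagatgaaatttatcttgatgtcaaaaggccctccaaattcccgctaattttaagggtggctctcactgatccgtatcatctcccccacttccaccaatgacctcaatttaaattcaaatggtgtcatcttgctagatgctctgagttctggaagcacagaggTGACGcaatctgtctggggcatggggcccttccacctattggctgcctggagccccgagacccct
TGACG, searched on both strands, begins 65 bases before the start. It is found in 17.8% of 32851 promoters of this length. Of the 8 members with a promoter in the RefSeq table, Calca and Calcr held it. ACGTG, a form of the core of the hypoxia response element, shares its ACG with TGACG. It was in none of the 8, Adm included, and in 16.6% of all promoters. Other forms of this core were not searched. A match or its absence describes the letters of this window and no binding.

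Adm (chromosome 7, 110627661 to 110629820, plus strand) encodes adrenomedullin, a vasodilator and growth factor of vessels. It stood at 6.64, 7.69 and 7.07 FPKM in tumours 1 to 3, against 9.79, 9.33 and 9.81 FPKM in glands 1 to 3. The 3 tumour values were all below the 3 gland values, with means of 7.14 ± 0.528 FPKM in the tumours and 9.64 ± 0.272 FPKM in the glands (SD, n = 3 each). The difference was -0.39 (SE 0.11) on the log2(FPKM + 1) scale, which is used for every fold change here and understates the changes of low genes. With quantile normalization the difference was -0.26, where the median of all genes moved to 0.119. Tmem19, Zbtb20, Cln8, Rab11b and Tnfrsf21 were nearest to Adm in pattern, at root mean square differences of 0.039 to 0.043. An antisense gene that overlaps Adm was not analysed here, and the sources used here give no strand setting for the libraries, so reads of the pair cannot be told apart.

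Adm2 (chromosome 15, 89322720 to 89324731, plus strand) encodes adrenomedullin 2, also called intermedin, which acts on the Calcrl receptors. It had 4.93, 3.73 and 3.07 FPKM in tumours 1 to 3, against 1.09, 0.433 and 0.901 FPKM in glands 1 to 3. Every tumour exceeded every gland, and the means were 3.91 ± 0.942 FPKM in the tumours and 0.809 ± 0.340 FPKM in the glands (SD, n = 3 each). The log2 fold change was 1.44 (SE 0.22), or 2.19 with a pseudocount of 0.1. It was the only tested gene of the system that stood higher in all tumours. The genes most like Adm2 in pattern over the 6 libraries were Asf1b (root mean square difference 0.071), Fen1 (0.092), Gmds (0.092), Cks2 (0.113) and Psat1 (0.130).

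Iapp (chromosome 6, 142298423 to 142303961, plus strand), the gene of the islet peptide amylin, was listed at 0 in all 6 libraries. It is overlapped on the other strand by Slco1a5, an organic anion transporter gene, at 7.61, 6.45 and 9.59 FPKM in the tumours and 1.02, 1.78 and 0.963 FPKM in the glands. The peptide genes together summed to 11.6, 11.4 and 10.1 FPKM in tumours 1 to 3 and to 198, 204 and 235 FPKM in glands 1 to 3. Calca made up 94.4% to 95.3% of that sum in the glands. In the tumours the sum consisted of Adm, at 57.4%, 67.4% and 69.7% in tumours 1 to 3, and of Adm2, at 42.6%, 32.6% and 30.3%. Adm was thus the most abundant peptide gene in each tumour, although its own level was somewhat below that of the glands.

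**Figure D2:**
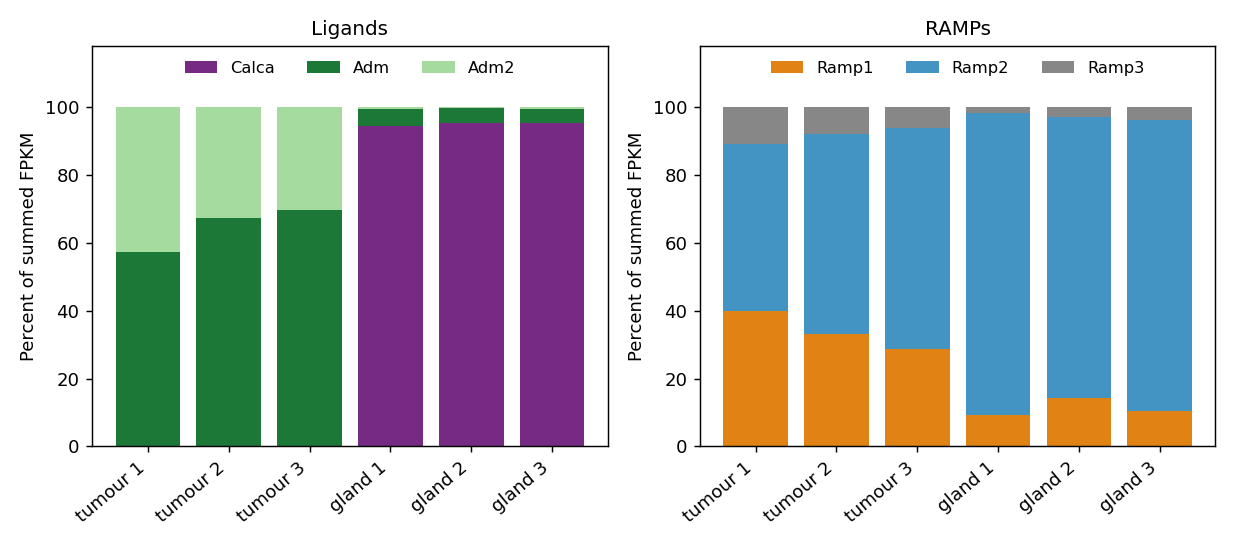
Share of each gene in the summed FPKM of the peptide genes (left) and of the 3 Ramp genes (right), in percent, with 1 bar per library and tumours left of glands. Calca fills about 95.0% of the peptide bar in the glands and none in the tumours (Calcb, at most 0.110%, is not drawn), and Ramp1 takes 28.8% to 39.7% of the Ramp bar in the tumours against 9.25% to 14.4% in the glands.

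Calcr (chromosome 6, 3685680 to 3764714, minus strand), the calcitonin receptor gene, was listed at 0 in all 6 libraries, also in the glands where Calca was high. Calcrl (chromosome 2, 84330626 to 84425411, minus strand) was the receptor gene measured. It stood at 1.51, 1.24 and 1.65 FPKM in tumours 1 to 3, against 4.93, 5.33 and 6.73 FPKM in glands 1 to 3. The groups did not overlap, with means of 1.47 ± 0.206 FPKM in the tumours and 5.66 ± 0.944 FPKM in the glands (SD, n = 3 each) and a log2 fold change of -1.43 (SE 0.16). Dzip1 (root mean square difference 0.075), Ginm1 (0.090), Itga2b (0.091), Ppp1r3d (0.091) and Cav2 (0.117) had the most similar patterns.

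Ramp2 (chromosome 11, 101246028 to 101259546, plus strand) encodes the partner that makes Calcrl an adrenomedullin receptor. It stood at 8.73, 7.19 and 4.09 FPKM in tumours 1 to 3, against 33.9, 37.3 and 37.9 FPKM in glands 1 to 3. The highest tumour value was well below the lowest gland value, and the means were 6.67 ± 2.37 FPKM in the tumours and 36.4 ± 2.16 FPKM in the glands (SD, n = 3 each), a log2 fold change of -2.33 (SE 0.24). Tumour 3 was the lowest of all. Vps25, a gene of endosomal sorting that overlaps Ramp2 on the same strand, was the other way round, at 114, 99.9 and 100 FPKM in the tumours and 79.1, 76.2 and 85.7 FPKM in the glands, so the level of Ramp2 is uncertain by any reads shared with it. Prrx1 (0.087), Sepp1 (0.096), Rps4l (0.104) and Nrp1 (0.107) were among the genes nearest to Ramp2 in pattern.

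Ramp1 (chromosome 1, 91179822 to 91225196, plus strand) encodes the CGRP receptor partner of Calcrl. It had 7.03, 4.04 and 1.81 FPKM in tumours 1 to 3 and 3.52, 6.5 and 4.63 FPKM in glands 1 to 3. The tumours spanned a wider range than the glands and enclosed all of them, and the log2 fold change of -0.25 (SE 0.39) was smaller than its error. It was 0.14 without tumour 3 and 0.09 with quantile normalization. Ramp3 (chromosome 11, 6658521 to 6677475, plus strand), whose product also makes Calcrl an adrenomedullin receptor, had 1.92, 0.972 and 0.386 FPKM in tumours 1 to 3 and 0.668, 1.39 and 1.64 FPKM in glands 1 to 3. The groups overlapped here too, with a log2 fold change of -0.13 (SE 0.32), which was 0.13 without tumour 3, 0.0029 without gland 3 and 0.49 with quantile normalization.

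In both Ramp1 and Ramp3 the order of the tumours was the same, with tumour 1 highest and tumour 3 lowest. The genes nearest to Ramp1 in pattern were Atp5e (0.117), Uxt (0.124), Ndufb6 (0.131), Tm2d1 (0.143) and Ndufa4 (0.148), and Uxt (0.129) and Ndufa4 (0.136) were also among the 5 nearest to Ramp3. Atp5e itself stood at 560, 358 and 235 FPKM in tumours 1 to 3 and at 344, 495 and 377 FPKM in glands 1 to 3. These genes were picked for their likeness, so that they follow the same order of libraries is set by the choice.

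The makeup of the Ramp transcripts differed between the groups while their sum was lower in the tumours. The 3 genes summed to 17.7, 12.2 and 6.28 FPKM in tumours 1 to 3, against 38.1, 45.2 and 44.2 FPKM in glands 1 to 3. Ramp2 made up 49.4%, 58.9% and 65% of the sum in tumours 1 to 3, against 89.0%, 82.6% and 85.8% in glands 1 to 3. Ramp1 made up 39.7%, 33.1% and 28.8% in the tumours, against 9.25%, 14.4% and 10.5% in the glands, and Ramp3 10.9%, 7.97% and 6.15%, against 1.76%, 3.07% and 3.71%. For each of these shares the groups did not overlap, and the difference in the Ramp1 share of 22.5 percentage points lay between 19.6 and 25.0 when 1 library was left out. These shares are ratios within a library. Ramp2 averaged 6.67 FPKM in the tumours and 36.4 FPKM in the glands. Ramp1 averaged 4.29 and 4.88 FPKM, and Ramp3 1.09 and 1.23 FPKM, with overlapping groups. The larger shares of Ramp1 and Ramp3 in the tumours thus follow mainly from the lower Ramp2 level and are no rise of these genes.

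The ratio of Ramp2 to Calcrl in FPKM was 5.77, 5.79 and 2.48 in tumours 1 to 3, against 6.87, 7 and 5.63 in glands 1 to 3. The groups overlapped, and tumour 3 had the lowest ratio. Ramp1 over Calcrl was 4.65, 3.25 and 1.10 in tumours 1 to 3, against 0.714, 1.22 and 0.689 in glands 1 to 3. Tumours 1 and 2 were above all glands and tumour 3 lay within their range. Ordered by mean level, the system ran Adm, Ramp2, Ramp1, Adm2, Calcrl and Ramp3 in the tumours, where neighbours from Adm to Adm2 lay within each other's spread and Calcrl and Ramp3 overlapped. In the glands it ran Calca, Ramp2, Adm, Calcrl, Ramp1, Ramp3 and Adm2, where Calcrl and Ramp1, and likewise Ramp3 and Adm2, overlapped. These overlaps compare ranges over libraries. Within each tumour Ramp1 was below Ramp2, with ratios of 0.805, 0.562 and 0.443 in tumours 1 to 3.

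Endothelial genes moved in the direction of Calcrl and Ramp2. Of 15 endothelial genes all 15 were tested and fell in the tumours (limma, adjusted p under the threshold), with a median log2 fold change of -2.12 beside 0.008 for all tested genes. Their sum was 48.8 to 107 FPKM in the tumours and 410 to 476 FPKM in the glands, and 0 of the 15 were at 0 throughout. Kdr, the main VEGF receptor of endothelium, fell by 2.55 (SE 0.16), Robo4 by 2.12 (SE 0.16), the angiopoietin receptor gene Tek by 2.44 (SE 0.22) and the junction gene Cdh5 by 2.47 (SE 0.23), with adjusted p values in limma from 7.78e-05 to 0.000283. Of 8 genes of pericytes and vascular smooth muscle 7 fell and 1 did not pass, and of 4 tested lymphatic endothelial genes 2 fell and 2 did not pass. The part of these cells in the levels of Calcrl and Ramp2 was not tested.

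Set against the mean of the 15 endothelial genes within each library, Ramp2 lay 0.73, 0.35 and 0.53 above it on the log2(FPKM + 1) scale in tumours 1 to 3, against 0.45, 0.75 and 0.62 in glands 1 to 3. The groups overlapped, with means of 0.54 ± 0.19 in the tumours and 0.61 ± 0.15 in the glands (SD, n = 3 each), a difference of -0.07 that turned to 0.14 with a pseudocount of 0.1 and to 0.02 without tumour 2. Calcrl lay below that mean, at -1.23, -1.52 and -0.41 in tumours 1 to 3, against -2.11, -1.85 and -1.71 in glands 1 to 3. All 3 tumours were thus higher than the glands on this relative scale, by 0.84 in the mean, or by 0.51 without tumour 3. Ramp3 stood at -1.01, -1.70 and -1.34 in the tumours, against -3.94, -3.25 and -3.26 in the glands, a difference of 2.13. Its own level, 0.386 to 1.92 FPKM over all libraries, did not pass (-0.13, SE 0.32). The relative difference of Ramp3 thus follows mainly from the lower endothelial mean in the tumours and is no rise of Ramp3. With a pseudocount of 0.1 the difference was 0.76 for Calcrl and 2.33 for Ramp3.

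**Figure D3:**
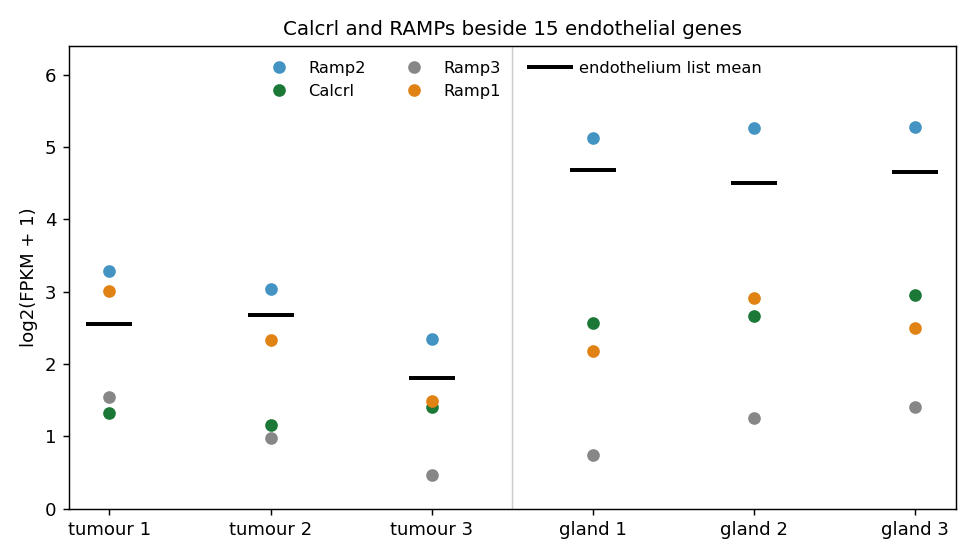
Levels of Calcrl and the 3 Ramp genes in each library (points) beside the mean of 15 endothelial genes (black bars), in log2(FPKM + 1), with tumours left of glands. Ramp2 lies 0.35 to 0.73 above the endothelial mean in the tumours and 0.45 to 0.75 above it in the glands, and Ramp1 lies above it in tumour 1 and below it in the other libraries.

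Around these genes, 7 lists of processing enzymes, degrading enzymes, receptor partners and signalling genes were followed. Of their 79 tested genes, none of them a member, 33 fell in the tumours, 16 rose and 30 did not pass. These are 41.8% and 20.3% of the tested genes, where 23.1% of all tested genes were lower and 21.9% higher. The median log2 fold change was -0.27 beside 0.008 for all tested genes.

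Peptide processing genes went both ways, with 3 of 8 lower, 2 higher and 3 not passing (median -0.14). Cpe, the carboxypeptidase that trims cleaved prohormones, rose to 60.5, 63.3 and 134 FPKM in tumours 1 to 3, against 13.8, 22.8 and 16.6 FPKM in the glands (log2 fold change 2.14, SE 0.33, limma, adjusted p = 0.00225). Tumour 3 was the highest. Pam, which amidates the ends of calcitonin, CGRP and adrenomedullin, fell to 16.6, 18.0 and 15.8 FPKM in the tumours, against 28.9, 27.5 and 29.7 FPKM in the glands (-0.74, SE 0.10, limma, adjusted p = 0.00127). The convertase gene Pcsk6 fell by 1.05 (SE 0.14). Pcsk5 fell by 0.56 (SE 0.14) but did not pass without gland 1 or gland 3, nor with quantile normalization, where it stood at -0.14. Furin, a convertase of most cells, had 29.4 to 38.2 FPKM in the tumours and 30.8 to 38.4 FPKM in the glands and did not pass. Without gland 1 or gland 3, 3 genes of the list passed in place of 5.

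Of 7 tested peptide degradation genes 4 fell, 2 rose and 1 did not pass (median -1.38). Mme, which encodes neprilysin, a peptidase that cleaves CGRP and adrenomedullin, fell to 2.40, 2.71 and 5.13 FPKM in the tumours, against 14.2, 15.7 and 15.7 FPKM in the glands (-1.93, SE 0.23, limma, adjusted p = 0.000762). The groups did not overlap. The aminopeptidase gene Enpep fell by 3.80 (SE 0.24), the endothelin converting enzyme gene Ece1 by 1.73 (SE 0.14) and the dipeptidyl peptidase gene Dpp4 by 1.38 (SE 0.21).

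Among 9 genes of receptor partners and scavengers 5 fell, 1 rose and 3 did not pass (median -1.25). The receptor kinase gene Adrbk2 (also called Grk3) fell by 2.21 (SE 0.15), the beta-arrestin gene Arrb1 by 1.38 (SE 0.15), Gpr182 by 1.91 (SE 0.23) and Grk5 by 1.25 (SE 0.17). Gpr182 encodes a receptor of endothelial cells that takes up chemokines. Chosen after their values were seen were Ackr3, which encodes a scavenger receptor of adrenomedullin, and Crcp, which encodes the CGRP receptor component. Ackr3 fell to 8.79, 8.33 and 7.12 FPKM in the tumours, against 17.9, 28 and 18.9 FPKM in the glands (-1.29, SE 0.19). Crcp was the gene that rose, with 22.7, 18.4 and 16.1 FPKM in the tumours, against 13, 10.5 and 11.6 FPKM in the glands (0.65, SE 0.15, limma, adjusted p = 0.0128).

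Of 21 tested genes of Gs and cyclic AMP signalling 10 fell, 0 rose and 11 did not pass (median -0.37). Prkar2b, a regulatory subunit of protein kinase A abundant in fat, fell to 8.08, 6.31 and 4.8 FPKM in the tumours, against 71.7, 69.3 and 73.5 FPKM in the glands (-3.32, SE 0.17, limma, adjusted p = 3.34e-05). The adenylyl cyclase genes Adcy5 (-2.68, SE 0.18) and Adcy3 (-2.09, SE 0.16) and Rapgef3 (-1.46, SE 0.16), a cyclic AMP-sensitive exchange factor, fell as well. Gnas, the Gs alpha subunit and the most abundant gene of the list, stood at 309, 349 and 426 FPKM in the tumours, against 467, 477 and 448 FPKM in the glands. It did not pass (-0.37, SE 0.14) but passed at -0.50 without tumour 3. Prkar1a, at 103 to 120 FPKM in the tumours and 97.3 to 110 FPKM in the glands, did not pass.

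Of 11 tested phosphodiesterase genes 7 fell, 1 rose and 3 did not pass (median -1.06). Pde3b, the phosphodiesterase of adipocytes and liver, fell by 3.47 (SE 0.16), Pde2a by 2.13 (SE 0.16), Pde1a by 1.93 (SE 0.19) and Pde8a by 1.84 (SE 0.18). Of 8 tested genes that cyclic AMP induces 2 fell, 1 rose and 5 did not pass (median -0.07). Dusp1 fell by 2.02 (SE 0.15) and Fos rose by 1.31 (SE 0.18). Sik1 fell by 0.78 (SE 0.19) but did not pass without gland 1 or gland 3. Without tumour 3, 5 genes of the list passed in place of 3.

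Hypoxia-induced genes were followed because Adm is known as one. Of 16 tested 9 rose, 2 fell and 5 did not pass (median 0.69), and their mean was 5.39, 5.32 and 5.62 on the log2(FPKM + 1) scale in tumours 1 to 3, against 4.59, 4.79 and 4.68 in glands 1 to 3. All tumours lay above all glands in this mean, while Adm lay below in all. The glucose transporter gene Slc2a1 rose by 1.69 (SE 0.15), the carbonic anhydrase gene Car9 by 2.26 (SE 0.24), the glycolytic enzyme gene Pgk1 by 1.56 (SE 0.20) and the prolyl hydroxylase gene Egln3 by 2.38 (SE 0.31). Vegfa, the main angiogenic ligand, had 27.0, 32.5 and 43.9 FPKM in the tumours and 29.9, 31.8 and 37.4 FPKM in the glands and did not pass.

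Glands 1 and 3, which were high in B cell genes, were also left out together. With 1 gland left, Pam, Cpe, Pcsk5, Mme, Dpp4, Arrb1, Grk5, Crcp, Sik1, Fos, Pgk1, Egln3 and Vps25 no longer passed, with fold changes in the same direction, and neither did Adm.

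**Figure D4:**
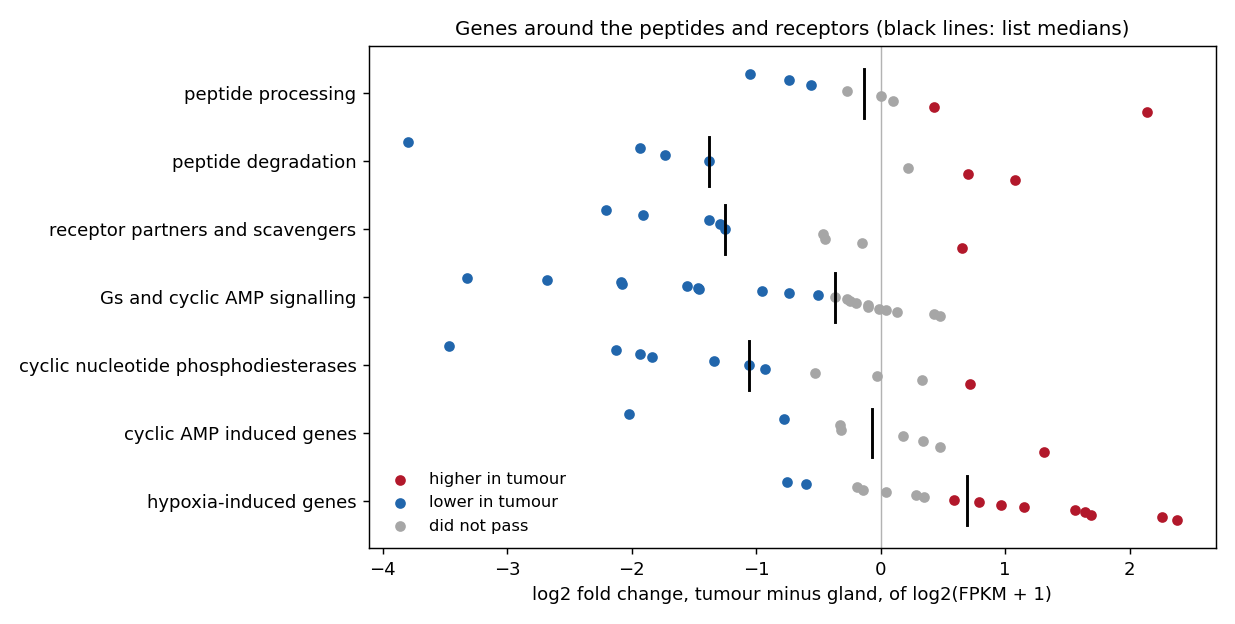
Log2 fold change (tumour minus gland, of log2(FPKM + 1)) of each tested gene of the 7 lists, coloured by whether it passed as higher or lower in the tumours or did not pass, with list medians as black lines. The medians run from -1.38 for peptide degradation to 0.69 for hypoxia-induced genes, and no gene of Gs and cyclic AMP signalling passed as higher.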

How the data were processed

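RNA-seq values of 6 libraries were used, 3 of mammary tumour and 3 of mammary gland. Per the labels, tissue was flash frozen and total RNA was extracted, treated against genomic DNA and made into Illumina libraries. HISAT2, StringTie and mm10 are named in the submitters' processing notes, without roles or versions. The deposited table names no unit; its values were taken as FPKM made by the authors, since they are never negative, not whole and sum differently in each library. Whole reads could not be recovered from the low values, where at most 7.08% of pairs shared a step. Genes averaging 1 FPKM or more were tested on log2(FPKM + 1), with a pseudocount of 1, by limma 3.58.1 in R 4.3.3 with a mean-variance trend, 2-sided, with Benjamini-Hochberg adjustment over all 13364 tested genes and a threshold of 0.05. Counting error did not enter the model.

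The members and lists were chosen with earlier results of these data known, and the share of each list that passed is set beside that of all genes. The genes named were all members, in each list the first 4 by p among those that passed and the 2 most abundant among the others, the 5 genes most like each member, and genes within 200 kb of Calca, given in part and in that order. Others are said to be chosen after their values were seen, overlap a member, or are defining markers at or near 0. Some genes are not reported here. Per the labels' numbering alone, libraries of the 2 groups share numbers. Their deviations from the group means had r from -0.124 to -0.0541, so the numbers were not used as pairs. Alternatives were a pseudocount of 0.1, no filter, a mean of at least 5 FPKM, quantile, median-of-ratios and common-sum scaling, the replicate block, each library left out, and glands 1 and 3 left out.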

Additional observations from a re-analysis of the deposited data

How the results depend on the processing

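With the replicate numbers as a block, 2147 genes were higher and 2581 lower, with 1 and 3 of the members and 14 and 30 of the list genes among them, and Adm, Pcsk5 and Vps25 lost their calls. Same-numbered libraries did not deviate together. With glands 1 and 3 left out, which leaves 1 gland, assumed to vary like the other libraries, 760 genes were higher and 1098 lower, and 2 and 18 of the list genes. At a mean of at least 5 FPKM, which tests fewer genes, 1864 genes and 21 list genes were lower and 0 members higher. Without 1 library, 2043 to 3094 genes were higher and 2174 to 3308 lower. The difference of Ramp2 from the endothelial mean turned to 0.14 with a pseudocount of 0.1 and lay between -0.16 and 0.02 without 1 library, and that of Ramp3 was 2.59 with quantile normalization. Genes that did not pass turned direction as follows, and the cause was not tested. With quantile normalization Ramp1 stood at 0.09, Ramp3 at 0.49, Furin at -0.08 and Vegfa at -0.03, and without 1 library they lay between -0.61 and 0.14, -0.41 and 0.13, -0.09 and 0.10, and -0.15 and 0.19. Furin was -0.01 with median-of-ratios scaling and -0.07 at a common sum, where Vegfa was -0.03. Values under about 1 FPKM, as for Ramp3 and Calcb, have a precision that cannot be given, since the depth is unknown.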
